A study of Mus musculus with 4 samples.

Results

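The genes described here encode the proteins of the cytosolic ribosome, followed in alveolar epithelial type 2 (AT2) cells of the mouse lung. Members are genes whose symbol begins with Rpl, Rps or Rplp and then a digit, plus Rpsa. Ribosomal S6 kinases (Rps6k) and symbols that hold -ps were left out, and a member needed at least 100 unique molecular identifiers (UMIs, each standing for 1 captured mRNA molecule) over the 4 libraries. Of the 27998 genes in the files, 87 symbols matched and 84 were members. The 3 below the minimum were Rpl10l and Rpl39l, with 0 UMIs in the cells used, and Rpl3l, with 71, while the lowest members were Rpl7l1 with 3777 UMIs and Rps19bp1 with 4256. The symbol rule also takes in 4 genes that are not standard ribosomal proteins. Rps19bp1 and Rpl7l1 are named for a binding partner and for sequence likeness, and Rps27rt and Rpl6l are single-exon copies of Rps27 and Rpl6. Without those, 80 genes remained, and their medians are given beside the main ones.

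All mice were Sftpc-creER;Rosa26-mTmG and received tamoxifen, which turns on membrane GFP in cells that use the promoter of Sftpc (surfactant protein C), and in their descendants. 14 days after tamoxifen they received PBS or 1 dose of bleomycin (0.8 U/kg), an agent that breaks DNA and injures the alveolar epithelium, into the trachea. GFP-positive cells without CD45 (leukocytes) and CD31 (endothelium) were sorted from 3-month or 12-month animals, with 3 mice pooled into each library. The 4 groups were therefore 1 library each: PBS at 3 and at 12 months, labelled day 0, and bleomycin at 3 and at 12 months, labelled day 30, so agent and day cannot be told apart.

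The cytosolic ribosome has a small subunit (Rps proteins), which reads the mRNA, and a large subunit (Rpl proteins), which joins the amino acids and carries a stalk (Rplp0, Rplp1 and Rplp2) that recruits elongation factors. Most of its proteins are needed in equal numbers, and their mRNAs are among the most abundant in a cell. Most of these mRNAs begin with a run of pyrimidines, the 5′ terminal oligopyrimidine (TOP) motif, through which mTOR signalling sets their translation. AT2 cells make and secrete surfactant, and after injury they divide and give rise to the flat gas-exchange cells of the alveolus.

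Cells with at least 500 genes, at most 20% mitochondrial UMIs and Sftpc at 5% or more of UMIs were used, which kept 9627 of 10911 barcodes, 2299 to 2570 per library, with 10896642 to 31849343 UMIs. The 11 AT2 markers other than Sftpc, which chose the cells, were each detected in every library, with a summed level of 86599 to 109732 CPM (counts per 1000000), and 68 barcodes occurred in more than 1 library. The bleomycin libraries were deeper, with a median of 8552 and 12520 UMIs per cell at 3 and 12 months, against 4563.5 and 5137.5 with PBS, and their median mitochondrial share was lower (3.44% and 2.19% against 5.23% and 5.08%). Each leukocyte marker list was highest with 12-month bleomycin. For the macrophage list the range was 5.14 to 64.6 CPM, with 8 of 10 markers (Ptprc among them) at 0 with 3-month PBS, its lowest library, and none at 0 with 12-month bleomycin. Neutrophil markers lay between 7.97 and 112 CPM, B or plasma cell markers between 26.8 and 146 CPM, and T or NK cell markers between 0 and 19.2 CPM. With 1 library per group no test was possible, so there is no p-value, and the 95% intervals cover counting error only. Log2 ratios compare UMIs summed over the cells of a library and scaled to CPM. In such sums fewer cells that use a gene and less RNA per cell cannot be told apart. The kit counts the 3′ end of an mRNA, so levels were compared between libraries and not between genes.

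Ribosomal protein mRNA took a smaller part of all UMIs in both bleomycin libraries. The members' share was 15.7% with 3-month PBS and 15.4% with 12-month PBS, against 11.6% with 3-month bleomycin and 11.5% with 12-month bleomycin, so the groups did not overlap. The summed level was 1.35-fold lower at 3 months (1.345 to 1.350) and 1.34-fold lower at 12 months (1.337 to 1.341). Small-subunit genes were lower by 1.41-fold at either age, and large-subunit genes by 1.31-fold at 3 and 1.29-fold at 12 months. These sums hold the copies Rps27rt and Rpl6l, which were far lower with bleomycin, and the subunits were not summed without them. Without the 4 non-standard members the summed level of the family was 1.33-fold lower at either age. The median log2 ratio of the 84 members was -0.39 at 3 months and -0.34 at 12 months, beside -0.01 and 0.10 over the 4796 and 4701 genes at 20 CPM or more in 1 of the compared libraries. Without the 4 non-standard members it was again -0.39 and -0.34.

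The difference was small per gene and spread over nearly all members. At 3 months 80 of 84 members lay below 0, beside 50.8% of all genes tested, and at 12 months 79 of 84, beside 41.8%. At both ages together it was 78 of 84, with each interval wholly below 0, beside 35.6% of 4458 genes. Past 1.5-fold there were far fewer. At 3 months 9 members were 1.5-fold or more lower, beside 11.1% of all genes, and 0 higher, beside 8.99%. With this scaling the count of lower members was thus close to that of genes at large. Under other scalings given below it was 7, 10 and 19, and no share of all genes was counted for these. At 12 months 12 were lower, beside 10.6%, and 2 (Rps27l and Rpl7l1) were higher, beside 18.5%.

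Members also kept close to each other. Within 0.2 log2 units of the members' median lay 64 of 84 at 3 months and 44 of 84 at 12 months. Measured from that same median, which lay below the median of all genes, 24.4% and 20.5% of all genes did. In the comparison at 3 months the members' quartiles were -0.47 and -0.28, and at 12 months -0.54 and -0.19, so the spread was wider in the older pair. The quartiles of all genes were -0.32 and 0.28 at 3 months and -0.27 and 0.46 at 12 months. The 2 bleomycin comparisons share no library. Across the 80 standard members their log2 ratios had a Pearson correlation of 0.78 and a Spearman correlation of 0.82, beside 0.78 and 0.77 across 4458 genes. Genes of a library share its depth and cells and are not independent, so these are descriptions. The scatter of the 2 ratios shows the compact group and the few genes outside it.

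**Figure D1:**
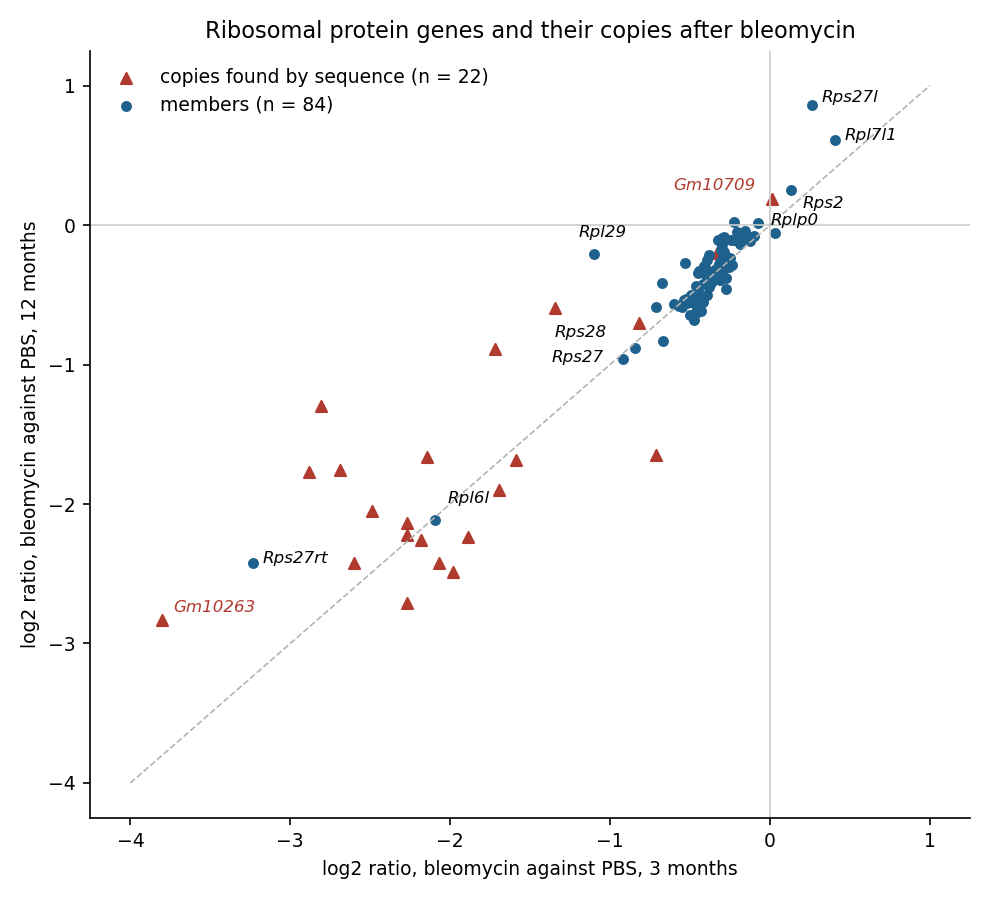
Log2 ratio of bleomycin against PBS at 3 months (horizontal axis) and at 12 months (vertical axis), 1 point per gene. Circles are the 84 members, triangles the 22 copies found by sequence that reached 20 CPM, and the dashed line marks equal ratios. Most members lie in a compact cloud around -0.39 and -0.34, while Rps27l, Rpl7l1 and Rps2 lie above 0 on both axes. Of the 22 copies, 20 are 1.5-fold or more lower on both axes, beside 11.1% of all genes at 3 months and 10.6% at 12 months.

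A member was said to depart from the group when its log2 ratio lay 1.5-fold or more from the members' median. At 3 months 5 members departed (Rps27rt, Rpl6l and Rpl29 downwards, Rps27l and Rpl7l1 upwards), beside 34.9% of all genes measured from that same median. At 12 months 6 did (Rps27rt, Rpl6l and Rps27 downwards, Rps27l, Rpl7l1 and Rps2 upwards), beside 44.2% measured likewise. The members' median lay below that of all genes, so these shares of all genes also hold the distance between the medians. How often genes at large depart from their own median was not counted. As plain ratios of bleomycin against PBS, 8.99% of all genes were 1.5-fold or more higher and 11.1% lower at 3 months. The shares at 12 months were 18.5% and 10.6%. Just outside the limit were Rps27 at -0.53 and Rps2 at 0.52 from the median at 3 months, and Rps28 at -0.54 from it at 12 months. The members nearest to the limit from inside were Rps27l at 0.65 and Rps2 at 0.59. Rps27 and Rps2 therefore crossed the limit at one age with nearly the same distance at the other. At 12 months neither departed with Sftpc at 10% or more of UMIs, with cells thinned to 3000 UMIs, in cells of 5000 to 10000 UMIs, or without cells holding markers of other cell types. At 3 months Rps27l did not depart in the last 2 of these settings, and Rpl7l1 did not in cells of 5000 to 10000 UMIs.

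The paralogs Rps27 and Rps27l lay on opposite sides of 0. Both encode the zinc-finger protein eS27 of the small subunit, and Rps27l is known as a direct target of p53. Their coding sequences are printed to show how far the paralogs differ in sequence. Rps27 lies at chr3:90212522-90213651 on the minus strand and Rps27l at chr9:66946086-66949516 on the plus strand (GRCm38, GENCODE M21). Both run 5′ to 3′ over 255 coding bases, of which 194 are identical (76.1%), and capitals in Rps27l mark the 61 bases that differ from Rps27.
Rps27: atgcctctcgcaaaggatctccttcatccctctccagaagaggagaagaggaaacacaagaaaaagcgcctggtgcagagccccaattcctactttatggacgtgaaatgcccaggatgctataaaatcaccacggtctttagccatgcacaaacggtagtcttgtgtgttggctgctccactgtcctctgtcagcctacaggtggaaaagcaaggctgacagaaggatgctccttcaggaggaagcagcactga
Rps27l: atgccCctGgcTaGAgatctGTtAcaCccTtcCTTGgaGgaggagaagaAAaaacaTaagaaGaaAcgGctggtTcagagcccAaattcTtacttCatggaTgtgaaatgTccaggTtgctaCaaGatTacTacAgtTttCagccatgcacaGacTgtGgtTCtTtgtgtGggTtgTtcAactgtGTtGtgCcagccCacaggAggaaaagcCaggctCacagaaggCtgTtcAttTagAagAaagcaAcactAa
The differing bases are spread along the whole length.

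Rps27 was among the members furthest below the median at either age. Its level was 5135 CPM with 3-month PBS, 5380 CPM with 12-month PBS, 2720 CPM with 3-month bleomycin and 2767 CPM with 12-month bleomycin. Both bleomycin libraries lay far below both PBS libraries, 1.89-fold lower at 3 months (1.87 to 1.91) and 1.94-fold lower at 12 months (1.92 to 1.96).

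Rps27l went the other way. It stood at 543 CPM with 3-month PBS, 454 CPM with 12-month PBS, 651 CPM with 3-month bleomycin and 827 CPM with 12-month bleomycin. It was 1.20-fold higher at 3 months (1.16 to 1.23) and 1.82-fold higher at 12 months (1.77 to 1.87), and the older pair differed more, by 0.60 log2 units (0.54 to 0.66). Among UMIs of the pair, Rps27l made up 9.57% and 7.78% with PBS, against 19.3% and 23.0% with bleomycin at 3 and 12 months. The sum of both genes was still 1.68-fold lower at 3 months and 1.62-fold lower at 12 months.

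Rps27l was higher in cells that also held a UMI of Cdkn1a, the p53 target that encodes the cell cycle inhibitor p21, a gene chosen after its values were seen. Cells were first thinned to 3000 UMIs each so that depth was equal. With bleomycin Rps27l stood at 973 CPM in the 418 cells with Cdkn1a and 552 CPM in the 1826 without at 3 months, and at 1097 CPM in 823 cells and 635 CPM in 1627 cells at 12 months. In the PBS libraries it was 651 and 534 CPM at 3 months, and 554 and 452 CPM at 12 months. Cells with Cdkn1a were thus higher in all 4 libraries. Rps27 differed little by the same split, with 2781 and 2803 CPM at 3 months and 2895 and 2801 CPM at 12 months after bleomycin. In cells without a Cdkn1a UMI the Rps27l level with bleomycin lay above that with PBS at 12 months (635 against 452 CPM) and close to it at 3 months (552 against 534 CPM).

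Rps27rt, at chr9:114982366-114982739, is a single-exon copy of Rps27, identical to it over 341 bases and over all 255 coding bases, so its coding sequence is the one printed for Rps27. It was the lowest member in either comparison. Its level was 2290 CPM with 3-month PBS and 1720 CPM with 12-month PBS, but 244 CPM with 3-month bleomycin and 321 CPM with 12-month bleomycin. The difference was 9.39-fold at 3 months (9.11 to 9.68) and 5.36-fold at 12 months (5.23 to 5.48). Reads from identical sequence cannot be told apart, and how the authors' counting treated them is not given in the sources used here, so the split between Rps27rt and Rps27 is uncertain. Summed over both, the level was 2.51-fold lower at 3 months and 2.30-fold lower at 12 months, so the sum was further from the members' median than Rps27 alone.

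**Figure D2:**
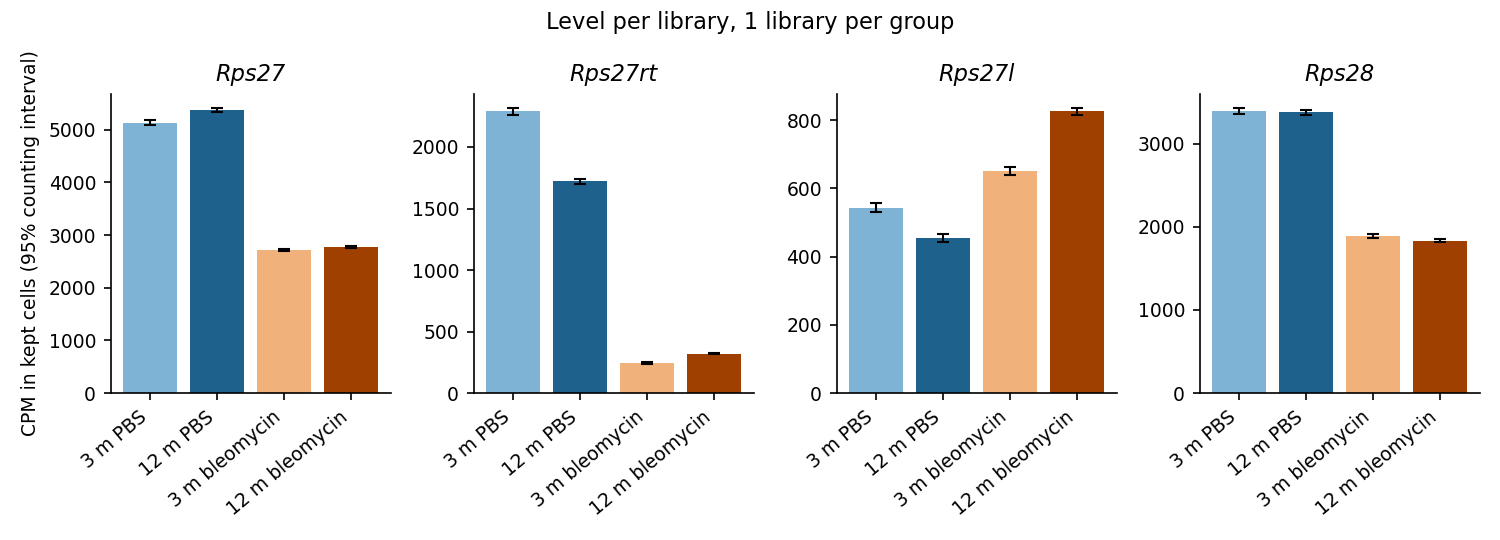
Level in CPM of Rps27, Rps27rt, Rps27l and Rps28 in the kept cells of each library, with 1 bar per library (m, months of age) and 95% counting intervals. Rps27, Rps27rt and Rps28 are lower in both bleomycin bars, while Rps27l reaches its highest level, 827 CPM, with 12-month bleomycin.

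Rps28 and Rps19 were the next lowest standard members at 12 months, and Rps28 was so at 3 months after Rps27 and Rpl29. Rps28 lies near the exit of the mRNA channel. It stood at 3396 CPM with 3-month PBS, 3374 CPM with 12-month PBS, 1888 CPM with 3-month bleomycin and 1833 CPM with 12-month bleomycin, which is 1.80-fold lower at 3 months (1.77 to 1.82) and 1.84-fold lower at 12 months (1.82 to 1.86). Rps19, which is needed to mature the small subunit and is often mutated in Diamond-Blackfan anaemia, had 7257 CPM with 3-month PBS, 7530 CPM with 12-month PBS, 4568 CPM with 3-month bleomycin and 4243 CPM with 12-month bleomycin. It was 1.59-fold lower at 3 months (1.57 to 1.60) and 1.77-fold lower at 12 months (1.76 to 1.79). For both genes every PBS library was well above every bleomycin library. On the large subunit Rpl37 was 1.64-fold lower at 3 months and 1.51-fold lower at 12 months. Rpl5 was lower by 1.39-fold at 3 and 1.60-fold at 12 months.

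In sums over all kept cells a few members did not share the lower level. Rps2, at the entry of the mRNA channel, had 1540 CPM with 3-month PBS, 1329 CPM with 12-month PBS, 1688 CPM with 3-month bleomycin and 1579 CPM with 12-month bleomycin. Its ratio was 1.10-fold at 3 months (1.08 to 1.12) and 1.19-fold at 12 months (1.17 to 1.21). The 3-month PBS library lay close to the 12-month bleomycin library, and the sign depended on copies and depth. Adding 4 sequence copies of Rps2 gave log2 ratios of -0.05 and 0.08, and in cells with 9000 to 15000 UMIs the ratios were -0.22 and -0.24.

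Rplp0, the base of the stalk, had 1830, 1834, 1740 and 1856 CPM in the order 3-month PBS, 12-month PBS, 3-month bleomycin and 12-month bleomycin. These levels were close in all 4 libraries, with a log2 ratio of -0.07 (-0.10 to -0.05) at 3 months and 0.02 at 12 months. In cells of 5000 to 10000 UMIs they were -0.18 and -0.24, so this too depended on depth. Its partners Rplp1 and Rplp2 followed the group, at -0.30 and -0.34 at 3 months and -0.18 and -0.32 at 12 months. Rpl13a, known also for a role in interferon-driven control of translation, had a log2 ratio of -0.22 at 3 months and 0.02 at 12 months. At 3 months it was thus below 0 with the group. Over the classes of cell depth given below it ran from -0.33 to -0.15 at 3 months and from -0.25 to 0.04 at 12 months. Rpl7l1, which is not a standard ribosomal protein, was higher after bleomycin. It had 40.7 and 35.7 CPM with PBS and 53.9 and 54.5 CPM with bleomycin at 3 and 12 months, 1.33-fold (1.19 to 1.48) and 1.53-fold (1.38 to 1.69).

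Among the other pairs of related genes, Rpl36a and Rpl36al also moved apart. Rpl36a on chromosome X had 1183 and 1176 CPM with PBS and 825 and 797 CPM with bleomycin at 3 and 12 months. Rpl36al, on chromosome 12, had 865 and 820 CPM with PBS and 809 and 776 CPM with bleomycin. Rpl36a was thus lower by 1.43-fold and 1.48-fold and Rpl36al by 1.07-fold and 1.06-fold, and the pair's balance differed. Rpl36al made up 42.2% (41.6% to 42.9%) and 41.1% (40.5% to 41.7%) of the pair with PBS, against 49.5% (49.0% to 50.0%) and 49.3% (48.9% to 49.7%) with bleomycin, with no overlap of the intervals.

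Rpl22 and Rpl22l1 behaved alike in direction but not in size. Rpl22 is known to restrain its paralog Rpl22l1. Rpl22 had 734 and 674 CPM with PBS and 551 and 541 CPM with bleomycin at 3 and 12 months. Rpl22l1 had 939 and 730 CPM with PBS and 588 and 547 CPM with bleomycin. The share of Rpl22l1 in the pair was 56.1% with 3-month PBS and 52.0%, 51.6% and 50.2% with 12-month PBS, 3-month bleomycin and 12-month bleomycin, so the young PBS library stood apart from the other 3. Rpl3l, the muscle form of Rpl3, was at most 0.128% of its pair. Rps4l was not analysed here.

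Rpl29 departed at 3 months, but most of the UMIs it shares with its copies were assigned to the copies, so its own level is uncertain. That level was 164 CPM with 3-month PBS, 93.8 CPM with 12-month PBS, 76.5 CPM with 3-month bleomycin and 81.3 CPM with 12-month bleomycin, so the 3-month PBS library alone was high. The copy Gm10709 had 673, 611, 679 and 696 CPM in the same order. With Gm10709 added the log2 ratio was -0.15 at 3 months and 0.14 at 12 months, against -1.10 and -0.21 for Rpl29 alone. The departure of Rpl29 was therefore lost when the copy was counted with it.

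Copies differed more than the members they copy. Processed copies of ribosomal protein genes are common in mammalian genomes, arise from mRNA and mostly lack introns. By sequence, 41 genes outside the members were found to copy one (at least 90% identity over at least 200 bases and 60% of the copy), and 22 of them reached 20 CPM. Of those, 20 were 1.5-fold or more lower in each bleomycin comparison, beside 11.1% of all genes at 3 months and 10.6% at 12 months. The 22 had median log2 ratios of -2.11 at 3 months and -1.83 at 12 months. Rpl6l, a copy among the members, had 412 and 327 CPM with PBS and 96.4 and 75.6 CPM with bleomycin, 4.27-fold (4.05 to 4.51) and 4.33-fold (4.12 to 4.55) lower, while Rpl6 itself was 1.13-fold and 1.08-fold lower. Gm10263, a copy of Rps28 picked after its values were seen, had 162 and 87.9 CPM with PBS against 11.6 and 12.3 CPM with bleomycin.

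A copy was found for 28 members, with Rps27rt and Rpl6l counted as copies, and for 25 of these the copies held at least 100 UMIs over the 4 libraries. In those 25 the copies' log2 ratio lay below that of the member in 24 at either age, Rpl29 being the exception. The median was -0.31 for the members and -2.11 for the copies at 3 months, and -0.26 and -1.90 at 12 months. Summed with their copies the medians were -0.50 and -0.33. The 52 standard members for which no copy was found had medians of -0.40 and -0.39, so the lower level was also present where no copy was found. The 22 copies at 20 CPM or more also differed between the PBS libraries, with a median of -0.43 for 12 against 3 months. Within a library the copies' share of the UMIs of copies and copied members hardly moved with cell depth. It was 21.6% to 22.2% with 3-month PBS, 17.6% to 18.3% with 12-month PBS, 10.5% to 11.6% with 3-month bleomycin and 9.30% to 10.0% with 12-month bleomycin. Whether the libraries shared a read length and mapping settings is not given in the sources used here, and the part that these and the authors' assignment of reads played in the copies' values was not tested.

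By role, lower members were found in each part of the ribosome. Rps2 of the mRNA channel and Rplp0 of the stalk, given above, did not follow in sums over all kept cells. Within the classes of cell depth given below, Rplp0 was lower in each, at -0.46 to -0.13 at 3 months and -0.37 to -0.23 at 12 months. Rps2 ran there from -0.22 to 0.01 at 3 months and from -0.24 to 0.07 at 12 months. In the 5S particle, whose free proteins bind Mdm2, Rpl5 was at -0.48 and -0.68 and Rpl11 at -0.22 and -0.11 at 3 and 12 months, so these partners were not lowered equally. Rpl4, Rpl17 and Rpl39 line the exit tunnel and had log2 ratios of -0.40, -0.31 and -0.53 at 3 months and -0.36, -0.26 and -0.27 at 12 months. Around the mRNA channel and the head of the small subunit, Rps3, Rps14 and Rps26 were at -0.38, -0.43 and -0.44 at 3 months, and at -0.44, -0.62 and -0.33 at 12 months. Rps6, the substrate of S6 kinase, was at -0.34 and -0.36, and Rpsa at -0.34 and -0.31. Apart from Rps2 and Rplp0, each of these role genes was lower at both ages in sums over all kept cells.

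Rps27a is made as a fusion to ubiquitin, and Fau, which falls outside the symbol rule, carries a ubiquitin-like part before Rps30. Rps27a had 2334 and 2307 CPM with PBS and 1695 and 1708 CPM with bleomycin at 3 and 12 months, which is 1.38-fold and 1.35-fold lower. Fau was 1.27-fold and 1.41-fold lower, so both were close to the members.

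Age made little difference to the family. With PBS, the median log2 ratio of 12 against 3 months was -0.05, beside -0.11 over 4526 genes, and 63 of 84 members were below 0, beside 70.2%, and 21 above, beside 29.8%. Within 0.2 of the members' median lay 79 of 84, beside 59.5% of all genes measured from that same median. With bleomycin it was -0.03, beside 0.00 over 4586 genes, and 53 of 84 were below 0, beside 49.5%, and 31 above, beside 50.5%. Within 0.2 of the members' median lay 80 of 84, beside 57.2% of all genes measured from that same median. Both medians changed sign under another scaling and lay near 0 under each. In the PBS libraries 1 member, Rpl29, departed, beside 5.13% of all genes. It was also the only member 1.5-fold or more lower, beside 3.73%, and 0 were higher, beside 2.08%. With the copies added 0 members departed. In the bleomycin libraries 0 departed, beside 7.5%, and 0 were 1.5-fold or more lower, beside 2.83%, or higher, beside 4.6%.

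The difference between bleomycin and PBS was also alike at the 2 ages. Across members the 12-month minus the 3-month log2 ratio had a median of 0.01 and quartiles of -0.05 and 0.11. For 74 of 84 members it lay within 0.2 of 0, beside 46.5% of all genes, and for 3 (Rpl29, Rps27l and Rps27rt) it reached 1.5-fold, beside 10.2%. These comparisons use the same 4 libraries as those by age and are not further evidence.

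Other genes of the translation apparatus did not all follow. Elongation factors followed the members, with medians of -0.37 and -0.35. In each bleomycin comparison 5 of 6 were below 0, beside 50.8% and 41.8% of all genes. Eef1a1, which delivers aminoacyl-tRNA, was 1.43-fold and 1.39-fold lower, and Eef2, which moves the ribosome along, 1.53-fold and 1.48-fold lower. Eif5a, which helps stalled peptide bonds form, was the exception at 0.19 and 0.51. Other genes known for a TOP motif had medians of -0.39 and -0.31, with 18 and 16 of 19 below 0, beside 50.8% and 41.8% of all genes. Of the 19, 3 and 4 were 1.5-fold or more lower, beside 11.1% and 10.6%, and 0 higher, beside 8.99% and 18.5%. Eif4b was at -0.78 and -0.84 and Tpt1 at -0.40 and -0.63. Some genes stand in both of those lists.

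Mitochondrial ribosomal proteins, which serve the separate ribosome inside mitochondria, stood on the opposite side. Their median was 0.22 at 3 months, with 54 of 65 above 0, beside 49.2% of all genes, and 0.35 at 12 months, with 61 of 68 above 0, beside 58.2%. Past 1.5-fold, 5 were higher and 1 lower at 3 months, beside 8.99% and 11.1% of all genes, and 15 were higher and 2 lower at 12 months, beside 18.5% and 10.6%, so the counts of higher genes were near those of genes at large. Initiation factors had medians of -0.05 and 0.11, close to all genes, with 2 higher and 3 lower of 29 at 3 months and 4 higher and 3 lower of 28 at 12 months, which is near the same shares of all genes (8.99% and 11.1%, then 18.5% and 10.6%). Genes of ribosome biogenesis were mostly under 20 CPM. The 15 at or above it had medians of 0.18 and 0.19, with 2 higher and 0 lower at either age, beside 8.99% and 18.5% of all genes higher and 11.1% and 10.6% lower. Among them the nucleolar proteins Ncl and Npm1 went opposite ways, at 0.48 and 0.29 for Ncl and -0.45 and -0.28 for Npm1.

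**Figure D3:**
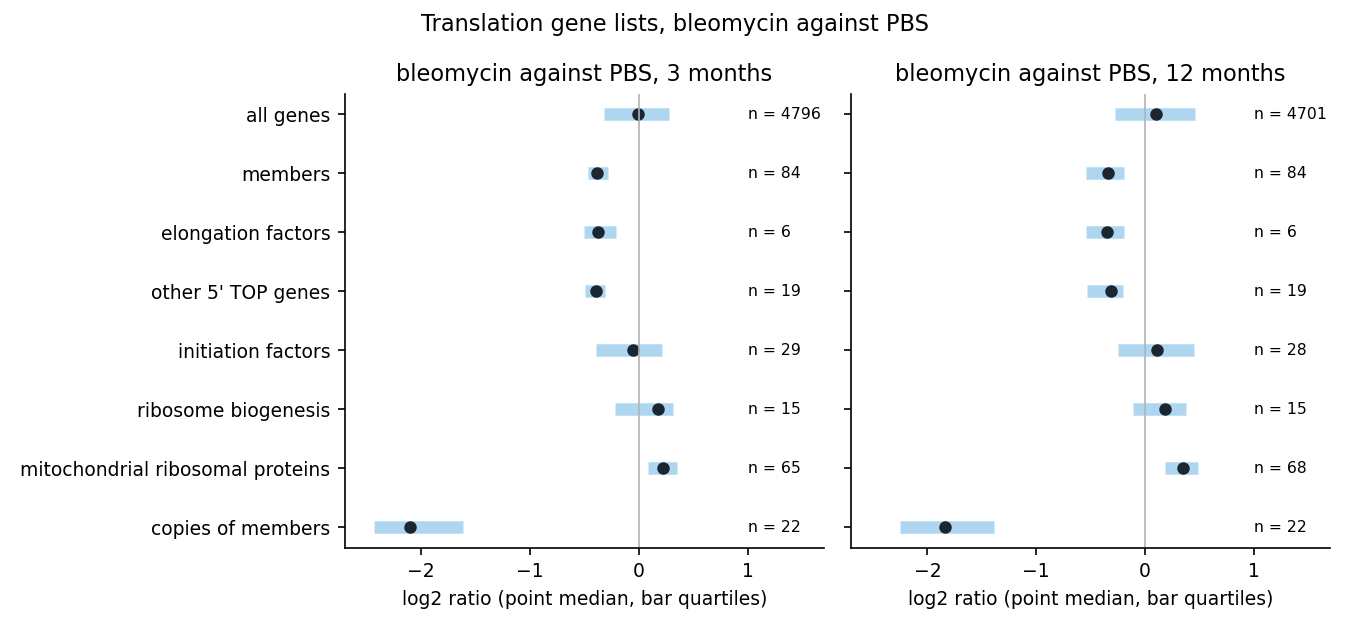
Median log2 ratio of bleomycin against PBS (points) with quartiles (bars) for fixed lists of translation genes, at 3 months (left) and 12 months (right), with the number of genes at 20 CPM or more. Members, elongation factors and other 5′ TOP genes lie below 0 (members at -0.39 and -0.34), mitochondrial ribosomal proteins lie above 0 (0.22 and 0.35), and copies of members lie furthest down (-2.11 and -1.83).

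Annotated starts were searched for the TOP motif in RefSeq promoters (GRCm38.p6). The motif was taken as a C followed by at least 4 further C or T letters, with that C within 5 bases of the annotated start, on the strand of the gene. Of 84 members 63 had an entry, and 29 of those (46.0%) held the motif, beside 18.4% of 27025 genes. On the opposite strand the shares were 12.7% and 21.1%. Starts of 5 members chosen among those that hold the run are printed to show it in genes that were lower, near 0 and higher after bleomycin. Each window has 10 bases before the start and 20 from it, 5′ to 3′ on the gene's strand, with the pyrimidine run in capitals.
Rps27 (chr3:90213629-90213658, minus): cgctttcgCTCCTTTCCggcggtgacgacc
Rpl22l1 (chr3:28805498-28805527, plus): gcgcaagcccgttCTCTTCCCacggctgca
Rpl13a (chr7:45128726-45128755, minus): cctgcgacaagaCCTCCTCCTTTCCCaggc
Rps2 (chr17:24720053-24720082, plus): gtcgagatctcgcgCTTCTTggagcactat
Rps27l (chr9:66946076-66946105, plus): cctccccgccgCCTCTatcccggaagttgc
For Rps27l the run is 5 letters long, against 9 for Rps27 and 14 for Rpl13a. The motif is also missing near the annotated starts of members at different places in the ranking, among them Rplp0 (near 0), Rpl7l1 (higher), Rpl36al and Rpl37. The windows of 2 of the lowest members without it are printed.
Rps28 (chr17:33824543-33824572, minus): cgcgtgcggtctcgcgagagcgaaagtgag
Rps19 (chr7:24884582-24884611, plus): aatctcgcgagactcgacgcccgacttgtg
A match is a description of these letters, and annotated starts can lie some bases from the start used in AT2 cells.

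In single cells the whole distribution lay lower with bleomycin. After thinning to 3000 UMIs, which left out 356, 242, 55 and 0 shallower cells of 3-month PBS, 12-month PBS, 3-month bleomycin and 12-month bleomycin, the median cell gave 15.65%, 15.2%, 11.4% and 10.9% of its UMIs to members. Unthinned medians were 15.7%, 15.3%, 11.4% and 10.8%. Cells below 10% made up 1.13% and 1.68% of the PBS libraries but 26.6% and 37.5% of the bleomycin libraries at 3 and 12 months. The middle 80% of cells ran from 12.4% to 19.9% with 3-month PBS and from 8.60% to 15.1% with 3-month bleomycin. At 12 months it ran from 12.2% to 19.3% with PBS and from 7.67% to 15.7% with bleomycin, so cells of the groups overlapped.

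**Figure D4:**
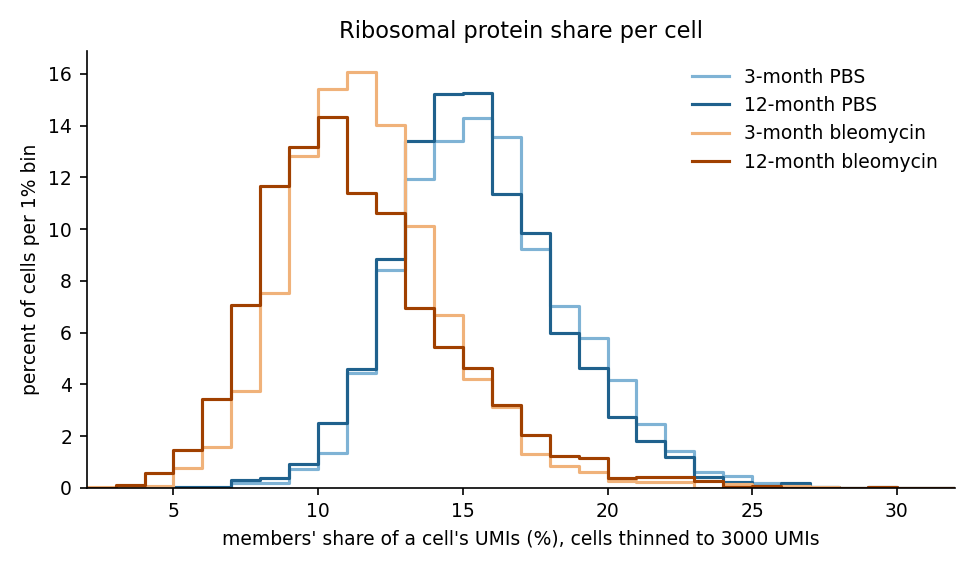
Distribution over cells of the members' share of UMIs (horizontal axis, percent), with cells thinned to 3000 UMIs and the percent of each library's cells per bin of 1 percentage point (vertical axis). The medians are 11.4% and 10.9% for the bleomycin curves and 15.65% and 15.2% for the PBS curves, and the curves overlap.

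The lower share was present at every cell depth compared. Among cells with 2000 to 4000, 4000 to 6000, 6000 to 9000 and 9000 to 15000 UMIs, the members' share was lower with bleomycin in each class, by 1.54, 1.27, 1.24 and 1.35-fold at 3 months and by 1.39, 1.36, 1.25 and 1.45-fold at 12 months. The smallest classes held 39 cells (3-month PBS, deepest) and 49 cells (12-month bleomycin, shallowest). Rps27 was lower and Rps28 was lower in every class at both ages. Rps27l was higher in every class at 12 months, from 0.54 to 0.85 log2 units. At 3 months it was at 0.22 to 0.30 in 3 classes and at -0.06 in the shallowest.

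**Figure D5:**
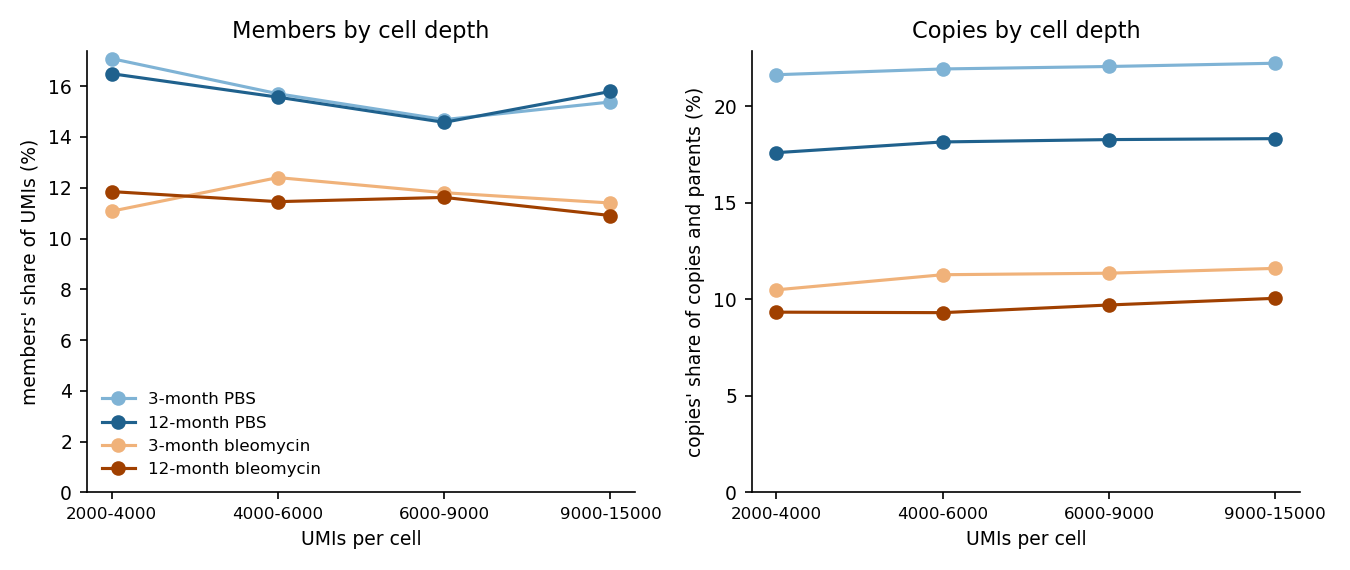
Left, the members' share of UMIs (percent) in 4 classes of cell depth. Right, the copies' share of the UMIs of copies and the members they copy (percent) in the same classes, with 1 line per library. The bleomycin lines lie below the PBS lines in every class on either side.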

How the data were processed

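Single-cell RNA was counted in 4 libraries (10x Genomics 3′ kit, 3 mice pooled in each), 1 per group. The authors deposited counts of UMIs per gene and barcode, whole numbers without normalization, for 27998 genes. Per the submitters' processing notes, Cell Ranger, Seurat 3.2.2 and build mm10 were used. The Cell Ranger release number is not given in the sources used here.

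Cells were kept by the limits on genes, mitochondrial UMIs and Sftpc given in the report, counts were summed per library and scaled to CPM of all genes (1 UMI equals 0.0314 to 0.0918 CPM), and 0.5 counts were added before log2 ratios were taken. Intervals are exact and at 95% (conditional binomial for ratios, Poisson for levels, Clopper-Pearson for shares), except a normal approximation for the difference of log2 ratios between the ages, and cover counting error only. PCR duplicates are removed by UMIs, and animals pooled in a library are not replicates. The interval code was tested on simulated data. Copies were found with BLAST 2.17.0 against GENCODE M21 transcripts (GRCm38), which hold 27645 of the 27998 gene identifiers. Doublets called with Scrublet in scanpy 1.11.5 (48, 63, 56 and 72 barcodes at 0.8% per 1000) were kept, and left out in an alternative. Other tools were Python 3.11.15, numpy 2.4.6, scipy 1.17.1, pandas 2.3.3 and matplotlib 3.10.9.

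Named genes are members that depart 1.5-fold from the members' median, both genes of listed paralog pairs, the 5 highest and 5 lowest members per comparison, and members of role lists. Of these the text gives those that show the pattern and counts the rest. The members and lists were chosen with earlier results of these data known. The alternatives that add or leave out copies found by sequence were chosen after seeing the data. The list symbol Rack1 is present under its older name Gnb2l1, whose log2 ratio of bleomycin against PBS was -0.44 at 3 months and -0.22 at 12 months. Some genes of the lists are not reported here.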

Additional observations from a re-analysis of the deposited data

Results flagged for a closer look

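Rps27l and Rps27rt differed between the ages in opposite directions with PBS and with bleomycin. For Rps27l, the log2 ratio of 12 against 3 months was -0.26 with PBS and 0.34 with bleomycin. For the copy Rps27rt it was -0.41 with PBS and 0.40 with bleomycin. Each group is 1 library, so the difference between the contrasts was not tested. Of 84 members, 23 had opposite signs with both intervals off 0, but in 21 of those the smaller ratio was under 0.2. The bleomycin ratios at 3 and at 12 months had opposite signs, with both intervals off 0, in 0 of 84 members. Neither count was made over all genes, so whether the members differ from genes at large in this is not known.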

How the results depend on the processing

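In both bleomycin comparisons the members' median stayed below 0 under all 14 alternatives, from -0.49 to -0.30 at 3 months and from -0.46 to -0.25 at 12 months, while the medians by age were near 0 and took either sign. At 3 months (-0.39) the median was -0.30 when scaled without the 20 most abundant genes, -0.49 when scaled to genes neither members nor mitochondrial, -0.34 with Sftpc at 10% or more, -0.31 in cells of 5000 to 10000 UMIs and -0.41 with copies found by sequence added. At 12 months (-0.34) it was -0.42 with median-of-ratios scaling, -0.46 scaled to genes neither members nor mitochondrial, and -0.25 with Sftpc at 1% or more. It was -0.38 with Sftpc at 10% or more, -0.37 thinned, -0.37 with -ps copies added and -0.38 for members with no copy found. Without cells holding other cell types' markers it was -0.44. That alternative left 215 of 2450 cells with bleomycin and 1615 of 2570 with PBS. For 12 against 3 months with PBS (-0.05) it was 0.0553 with median-of-ratios scaling, 0.0127 without the 20 most abundant genes and -0.0088 with Sftpc at 10% or more. With bleomycin (-0.03) it was 0.0037 with median-of-ratios scaling, 0.0532 with Sftpc at 1% or more, -0.066 without the 20 most abundant genes, -0.0496 scaled to genes neither members nor mitochondrial, -0.0706 with Sftpc at 10% or more, -0.082 without cells holding other cell types' markers and -0.0537 thinned.

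Departing members at 3 months (5) were 3 in cells of 5000 to 10000 UMIs, where Rps27l and Rpl7l1 no longer departed. They were 4 without cells holding other cell types' markers, where Rps27l no longer departed, 3 with copies added and 2 among members with no copy found. At 12 months (6) they were 3 with copies added and 2 among members with no copy found. They were 4 with Sftpc at 10% or more, thinned, and in cells of 5000 to 10000 UMIs, where Rps27 and Rps2 no longer departed, and 5 without cells holding other cell types' markers, where Rps19bp1 departed in place of those. By age with PBS (1) they were 0 under both, and with bleomycin (0) they were 1, Rps27rt, in cells of 5000 to 10000 UMIs. Fewer genes enter where copies are merged or left out, and otherwise the cause was not tested.

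Scaling moved the median of all genes, from -0.11 to 0.08 at 3 months and from -0.02 to 0.10 at 12 months, and the members lay 0.38 and 0.44 log2 units below it, a distance that scaling a library cannot change. Members 1.5-fold or more lower went from 9 to 19 at 3 months with scaling to genes neither members nor mitochondrial. They were 10 there with median-of-ratios scaling and 7 without the 20 most abundant genes. At 12 months they went from 12 to 27 with median-of-ratios scaling and to 29 with scaling to genes neither members nor mitochondrial. Without the 20 most abundant genes they were 13. The share of all genes 1.5-fold or more lower was not counted under these scalings, so these counts have no such share beside them. Among all genes past 1.5-fold, the higher ones made up 44.8% at 3 months, 59.8% without the 20 most abundant genes and 28.8% with scaling to genes neither members nor mitochondrial, and 63.6% at 12 months, 52.7% with median-of-ratios and 49.1% with the latter. No paired analysis was possible because each group is 1 library.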

Other observations

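Cells with Sftpc under 5% of UMIs that met the other limits were outside the rule. In those, the members took 17.6% of UMIs with 3-month PBS (86 cells), 14.9% with 12-month PBS (175 cells), 11.9% with 3-month bleomycin (325 cells) and 17.5% with 12-month bleomycin (543 cells). The last library thus gave a higher share in these cells than the 11.5% of its kept cells. Their cell types were not examined.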
